A study of Mus musculus with 6 samples.

Results

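Rasa1, Rheb, Cdk9 and Fn1 are growth regulators that studies of cardiac hypertrophy reported as targets of miR-1, and Ccnt1, Ccnt2 and Mtor encode partners in the same machinery. They were followed in hearts of mice lacking miR-1-2. All probe sets annotated to one of these 7 genes were taken by symbol, 7 of the 18193 genes with a probe set of their own. This gave 18 of the 45037 probe sets tested: 3 for Rasa1, 1 for Rheb, 2 for Cdk9, 2 for Fn1, 2 for Ccnt1, 5 for Ccnt2 and 3 for Mtor. Messenger RNA was measured in whole hearts at postnatal day 10, in 3 mice labelled miR-1-2 knockout and 3 labelled wild type, with 1 Affymetrix array for each mouse. The comparison asks whether transcripts under reported miR-1 control stood higher without this gene. The sources used here give neither strain, litter nor sex, nor how the gene was deleted.

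MicroRNAs pair with sites in messenger RNAs and lower the stability or the translation of the message, so an array sees only the part of their action that changes RNA level. miR-1 is among the most abundant microRNAs of heart muscle and is made from more than one gene, of which the miR-1-1 gene is not the one named in the genotype. Growth of heart muscle draws on several steps that these 7 genes sit in. Ras proteins pass signals from receptors to MAP kinases, and the Rasa1 protein (RasGAP) switches Ras off. Rheb, a small GTPase, turns on the kinase mTOR, which drives protein synthesis. Cdk9 joins cyclin T1 or cyclin T2 to form P-TEFb, which releases paused RNA polymerase II. Fibronectin, the product of Fn1, is a matrix protein that cells hold through integrins.

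None of the 7 genes passed the test for a difference between knockout and wild-type hearts. With limma across all probe sets, 0 of the 18 passed an adjusted p of 0.05 (smallest adjusted p = 1.00), where 3 of 45037 did, 0.00666% of them. At an unadjusted p under 0.05, 0 of the 18 passed as well, against 3.94% of all probe sets. The differences lay between -0.13 and 0.15 on the log2 scale, knockout minus wild type, 11 above 0 and 7 below (61.1% above, against 47.1% of all probe sets). Every one of the 18 95% intervals included 0. The widest bounds were 1.29-fold higher and 1.28-fold lower in knockout, so a change beyond these sizes lay outside the interval of each probe set. The bounds hold for the fit without a term for sex: with the Xist level as a covariate the differences ran from -0.14 to 0.31, with Cdk9 at 0.31 and Fn1 at 0.28 and 0.24, and 0 of the 18 passed (smallest adjusted p = 0.674). In the covariate fit the genotype difference rests largely on knockout replicate 2, the only knockout heart with high Xist (12.19, against 7.55 and 7.57). The SE in that fit was 0.12 for Cdk9 and 0.14 and 0.16 for Fn1. The 95% intervals hold for one probe set at a time, and RMA, the authors' summary method, compresses differences of dim probe sets. Values are log2 RMA values throughout. Probe sets are ordered by brightness, but a brighter one is not read as a more abundant message.

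**Figure D1:**
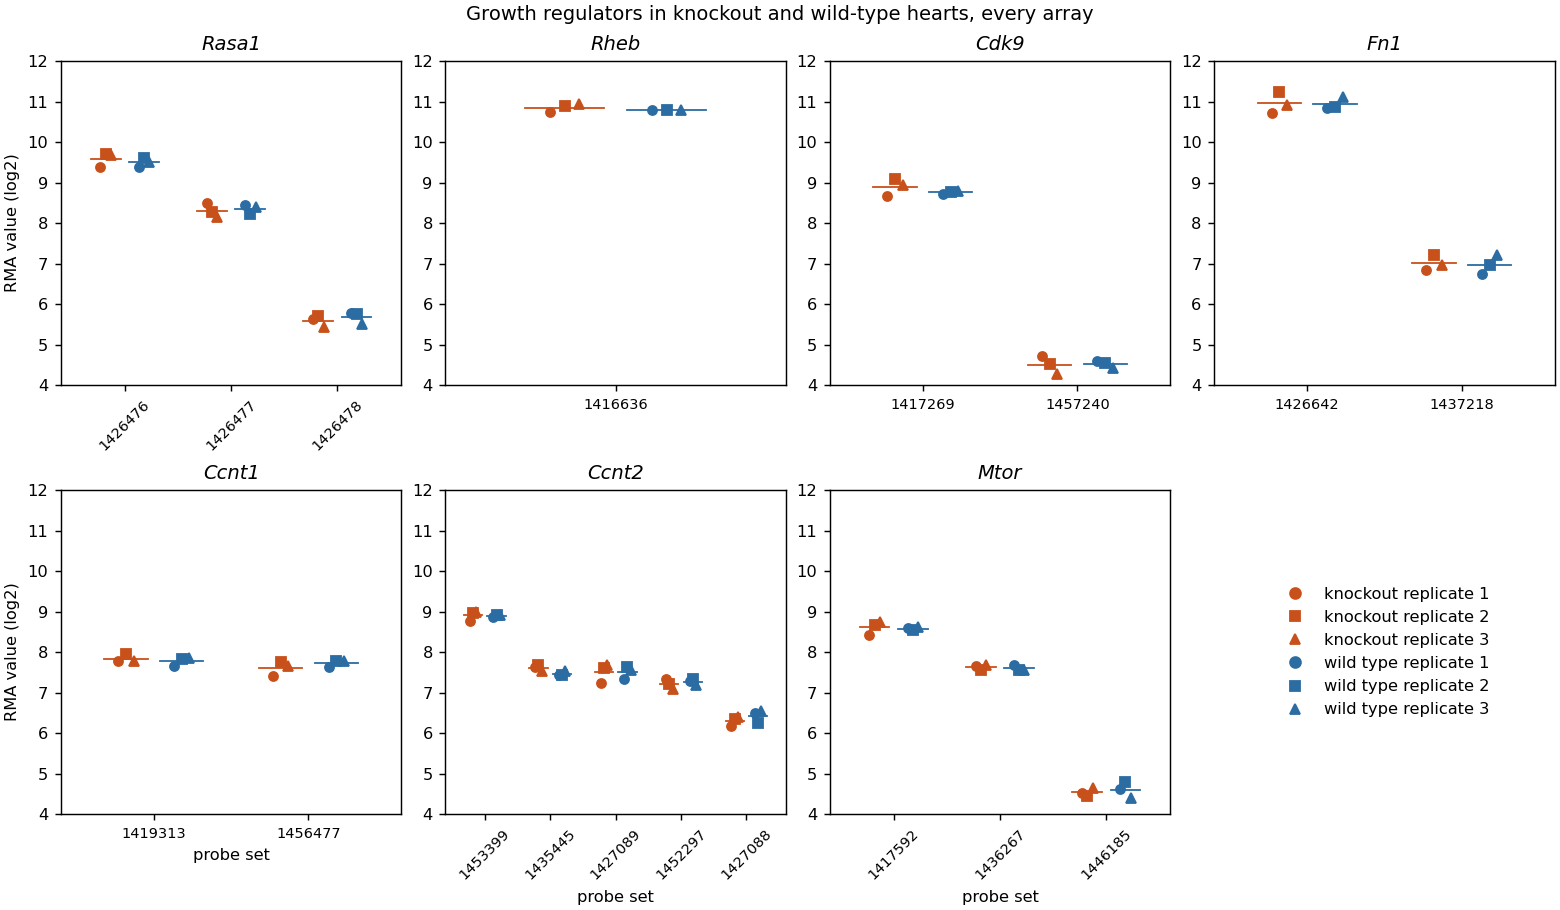
RMA value (log2, y axis) of every probe set (x axis, brightest at the left) of the 7 genes, with orange points for the 3 knockout arrays, blue points for the 3 wild-type arrays, and a line at each group's mean. The orange and blue points overlap for 17 of the 18 probe sets, and stand apart only for Ccnt2 1435445, at 7.54 to 7.68 in knockout and 7.42 to 7.54 in wild type.

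The arrays were checked on genes outside the 7. Array medians lay between 6.03 and 6.11. Sarcomere genes of heart muscle were bright in every array, for example Tnnt2 (cardiac troponin T) between 13.90 and 14.05 in knockout and between 13.85 and 13.97 in wild type, and the cardiac transcription factor Nkx2-5 was between 8.65 and 8.84 in knockout and between 8.55 and 8.70 in wild type. The miR-1-2 gene itself was not analysed here, so its deletion was not checked. Mib1, its host gene, was at 7.56, 8.15 and 8.185 in knockout replicates 1, 2 and 3. In wild type it was between 8.189 and 8.40 (log2 difference -0.33, adjusted p = 1.00 with limma). The groups stood apart by a small margin at this brightest of its 3 probe sets, as they did for 8.86% of all genes. Xist, high where an X chromosome is inactivated, was at 7.55 and 7.57 in knockout replicates 1 and 3, at 12.19 in knockout replicate 2, and between 11.91 and 12.13 in wild type, so the sexes were unequal between the groups. Replicate 1 of each group carried the brown fat gene Ucp1 at 10.39 in knockout and 9.45 in wild type, against 5.28 to 6.68 and 5.22 to 5.50 in the other knockout and wild-type arrays. Adipoq, a fat cell hormone gene, was at 7.32 and 6.85 in the same 2 arrays. The mean of 6 measured brown fat and adipocyte markers was 7.99 and 7.71 in these arrays, and between 6.28 and 6.60 in the rest. Some of the values below are also given with the Xist level as a covariate, or with these arrays left out, and more of them in the closing section. With that covariate the genotype difference rests largely on knockout replicate 2, the only high-Xist knockout heart. For the pathway and marker genes outside the 7, no value with the Xist covariate is given. What the fat markers contribute was not tested in another way.

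Rasa1 encodes the GTPase-activating protein that shuts off Ras. Its brightest probe set, 1426476_at, read 9.38, 9.71 and 9.69 in the knockout hearts and 9.39, 9.61 and 9.51 in the wild-type hearts. Both replicates numbered 1 were lowest in their group, and the groups overlapped. Knockout averaged 9.59 ± 0.18 and wild type 9.50 ± 0.11 (SD, n = 3 each), a difference of 0.088 with a 95% interval of -0.15 to 0.33. It was 0.030 without wild-type replicate 1, 0.19 without knockout replicate 1 and 0.20 with the Xist level as a covariate. The dimmer probe sets pointed the other way. Probe set 1426477_at read 8.48, 8.28 and 8.15 in knockout and 8.46, 8.22 and 8.40 in wild type, a difference of -0.056. Probe set 1426478_at averaged 5.59 ± 0.14 in knockout and 5.69 ± 0.15 in wild type, a difference of -0.099. Over the 6 arrays the brighter pair ran against each other (r = -0.91, across 6 arrays that include both groups), so the Rasa1 probe sets did not rank these hearts alike. The probe sets may read different parts of the transcript, and their positions were not used here.

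Rheb activates mTOR when loaded with GTP, and it has a single probe set on the array. It read 10.73, 10.88 and 10.93 in knockout and 10.80 in each wild-type heart. The wild-type arrays were nearly identical (SD 0.0033, n = 3), and the knockout arrays fell on both sides of them. Knockout averaged 10.85 ± 0.10 (SD, n = 3), a difference of 0.048 with an interval of -0.13 to 0.22, the interval resting on a variance that limma shares across probe sets. It was 0.0081 without knockout replicate 3 and 0.11 without knockout replicate 1. This was the narrowest spread over the 6 arrays among the brightest probe sets of the 7 genes (SD 0.070).

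Mtor encodes the kinase that Rheb switches on. Its brightest probe set read 8.42, 8.68 and 8.74 in knockout, against 8.58, 8.54 and 8.61 in wild type. The knockout hearts again enclosed the wild-type hearts, with replicate 1 below and the other 2 above. The difference was 0.037 (interval -0.17 to 0.25), and it was 0.13 without knockout replicate 1 and -0.027 without knockout replicate 3. Probe set 1436267_a_at averaged 7.62 ± 0.065 in knockout and 7.60 ± 0.063 in wild type (SD, n = 3 each), a difference of 0.018. The dimmest, 1446185_at, averaged 4.54 ± 0.11 in knockout and 4.60 ± 0.20 in wild type, toward the bottom of a scale whose lowest value was 2.64.

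Cdk9, the kinase of P-TEFb, had the largest difference among the brightest probe sets of the 7 genes. It read 8.67, 9.08 and 8.94 in the knockout hearts and 8.73, 8.76 and 8.80 in the wild-type hearts. Knockout replicates 2 and 3 were above every wild-type heart and knockout replicate 1 below every one. The means were 8.89 ± 0.21 in knockout and 8.76 ± 0.036 in wild type (SD, n = 3 each), a difference of 0.13 with an interval of -0.10 to 0.37 (unadjusted p = 0.237, adjusted p = 1.00 with limma). The spread within knockout was larger than the difference. Without knockout replicate 1 the difference was 0.25 (adjusted p = 0.246 with limma), without knockout replicate 2 it was 0.042 (adjusted p = 1.00), and with Xist as a covariate 0.31 (adjusted p = 0.674). The covariate value rests largely on knockout replicate 2, the highest heart at this probe set. The other Cdk9 probe set, 1457240_at, stood near the bottom of the scale, at 4.50 ± 0.22 in knockout and 4.52 ± 0.087 in wild type.

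The cyclins of P-TEFb did not pass the test either. Ccnt1, encoding cyclin T1, read 7.77, 7.95 and 7.78 in knockout and 7.65, 7.84 and 7.86 in wild type at its brightest probe set. The difference was 0.052, with overlapping groups. Its other probe set, 1456477_at, read 7.42, 7.74 and 7.64 in knockout and 7.64, 7.77 and 7.77 in wild type, a difference of -0.12 (interval -0.34 to 0.094). Here knockout replicates 1 and 2 lay on either side of the lowest wild-type heart, and the 2 probe sets of the gene differed in sign.

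Ccnt2, encoding cyclin T2, is covered by 5 probe sets, which differed in sign. The brightest, 1453399_at, stood at 8.91 ± 0.12 in knockout and 8.90 ± 0.030 in wild type (SD, n = 3 each). Probe set 1435445_at was the single one of the 18 whose groups did not overlap, which 8.7% of all probe sets also did. It read 7.63, 7.68 and 7.54 in knockout and 7.44, 7.42 and 7.54 in wild type. Replicate 3 of both groups read 7.54. Its difference of 0.15 ± 0.075 (SE) had the smallest p of the 18 (unadjusted p = 0.0839, adjusted p = 1.00 with limma), and 3 arrays against 3 cannot go below an exact two-sided permutation p of 0.1. In absolute size, 86.2% of all probe sets differed by less. Among the other probe sets, 1427088_at differed by -0.13 (6.17, 6.35 and 6.39 in knockout, 6.49, 6.25 and 6.55 in wild type), 1452297_at differed by -0.053, and 1427089_at by 4.1e-04. The Pearson correlations between Ccnt2 probe sets over the 6 arrays ran from -0.78 to 0.95.

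**Figure D2:**
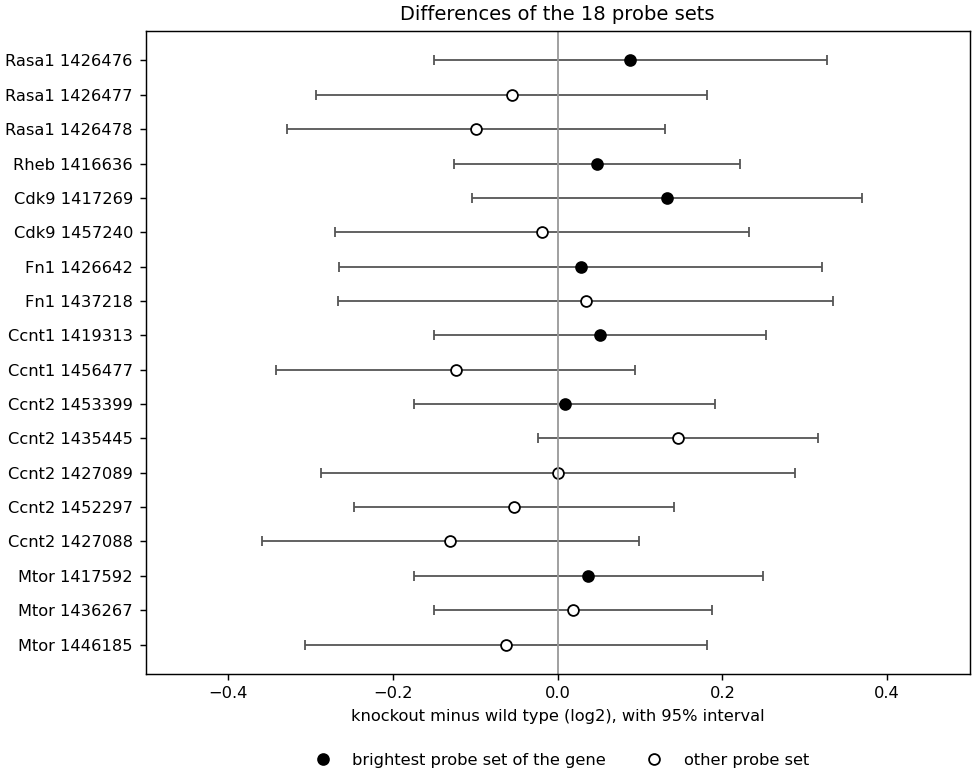
Difference between knockout and wild type (x axis, log2, knockout minus wild type) of the 18 probe sets (rows), with 95% intervals from limma as bars, filled points for the brightest probe set of a gene and open points for the others. Every bar crosses 0, and the points run from -0.13 to 0.15.

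Fn1 is expressed mainly by fibroblasts and other non-muscle cells of the heart. In whole hearts fewer such cells and less Fn1 RNA in each of them cannot be told apart. The brightest Fn1 probe set read 10.73, 11.22 and 10.93 in knockout, against 10.83, 10.86 and 11.10 in wild type. Knockout held both the lowest and the highest heart. The difference was 0.028 (interval -0.27 to 0.32), at 10.96 ± 0.25 in knockout and 10.93 ± 0.15 in wild type (SD, n = 3 each). The second probe set read 6.85, 7.21 and 6.96 in knockout and 6.75, 6.95 and 7.22 in wild type, a difference of 0.034. The Fn1 probe sets ranked the hearts much alike (r = 0.90 over 6 arrays), and both had the largest values in knockout replicate 2 and wild-type replicate 3. The sign rested on single arrays. Without knockout replicate 2 Fn1 differed by -0.10 and -0.068 at the brighter and the dimmer probe set, in a fit where sex and genotype coincide. Without wild-type replicate 1 it differed by -0.021 and -0.080, and without wild-type replicate 2 the brighter one differed by -0.0091. With the Xist level as a covariate the differences were 0.28 and 0.24 (adjusted p = 0.674 and 0.701 with limma). These differences rest largely on knockout replicate 2, where Fn1 was highest among the knockout hearts.

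Markers of other cell types were read beside Fn1. Of 11 measured fibroblast markers 2 were higher and 9 lower in knockout, with a median of -0.035, and the list mean was 10.92, 11.13 and 10.87 in the knockout arrays and 11.05, 10.92 and 11.06 in the wild-type arrays. Knockout replicate 2 was highest for this list and for the brighter Fn1 probe set. The dimmer Fn1 probe set was highest in wild-type replicate 3 (7.22, against 7.21 in knockout replicate 2). Hepatocytes make much fibronectin, and of 7 measured hepatocyte markers 3 were higher and 4 lower, with a median of -0.013. Albumin (Alb) stayed between 6.09 and 6.22 in knockout and between 6.01 and 6.26 in wild type. Of 8 endothelial markers 6 were higher in knockout (list mean 8.95 to 9.24 in knockout and 8.94 to 9.17 in wild type). Of 8 myeloid markers 7 were lower in knockout (list mean 6.72 to 6.89 in knockout and 6.89 to 7.15 in wild type), and 0 passed over all genes. At an unadjusted p under 0.05, 3 of the 8 passed, all lower (37.5%, against 4.1% of all genes). Groups stood apart for 4 of the 8 (50%, against 8.86% of all genes). The part of these cells in the Fn1 values was not tested.

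At the brightest probe set, all 7 genes had a higher mean in knockout, with a median of 0.048. That count sits in a background that leans the same way: of 5623 genes with a probe set at least as bright as that of Ccnt1, the dimmest of the 7, 63.9% were higher in knockout, and 50.2% of all 18193 genes were. The count depended on single arrays. It was 4 of 7 without knockout replicate 2, where 51.3% of the equally bright genes were higher, 4 of 7 without wild-type replicate 1 (54.8%), 5 of 7 without knockout replicate 3 (55.9%) and 6 of 7 without wild-type replicate 2 (64.9%). It remained 7 of 7 without knockout replicate 1 (74.1%) and without wild-type replicate 3 (65.8%).

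Knockout replicate 1 stood apart from the other knockout hearts for these genes. It was the lowest of the 6 arrays for 6 of the 7 brightest probe sets, Ccnt1 being the exception, and for 9 of all 18. Knockout replicates 2 and 3 were highest for 4 and 3 of the 7. Without knockout replicate 1 the groups did not overlap for 6 probe sets, all higher in knockout: the brightest ones of Rheb, Cdk9, Mtor, Rasa1 and Ccnt2, and Ccnt2 1435445_at. That is 33.3% of the 18, against 35.2% of all probe sets with the same 5 arrays, and 0 of the 18 passed in that fit. With replicate 1 of both groups left out, 7 of the 18 did not overlap (38.9%), against 43.6% of all probe sets. In both settings the share of the 18 was near the background.

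**Figure D3:**
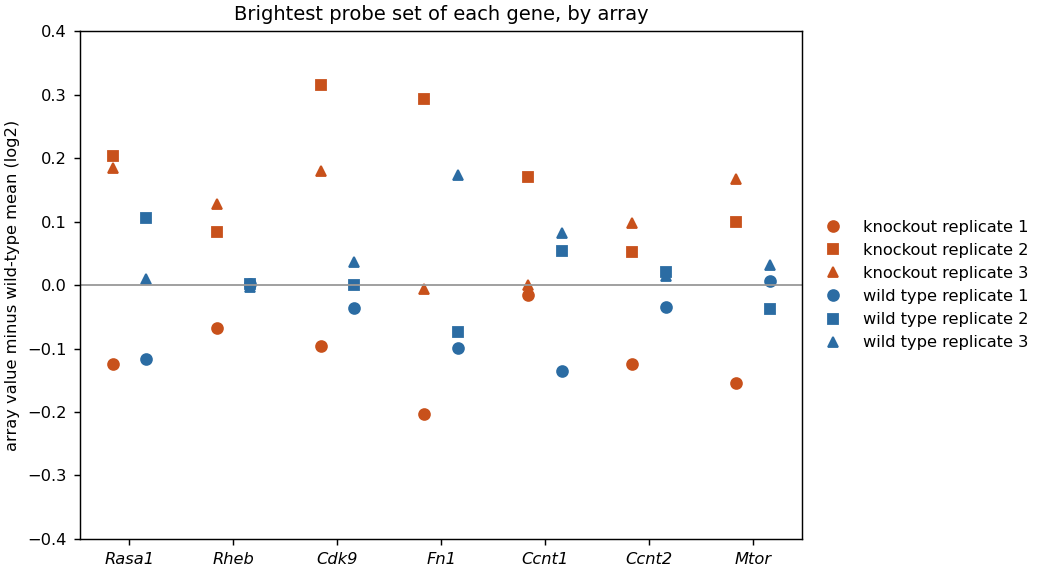
Value of each array minus the wild-type mean (y axis, log2) for the brightest probe set of the 7 genes (x axis), with orange points for knockout, blue points for wild type, and circles, squares and triangles for replicates 1, 2 and 3. The orange circle is the lowest point for every gene but Ccnt1, and the orange squares and triangles of Rheb, Cdk9, Mtor, Rasa1 and Ccnt2 lie above all blue points.

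The genes around the 7 in their pathways were read from lists, at 1 probe set for each gene. Over all 18193 genes 0 passed an adjusted p of 0.05 with limma (0%), 746 had an unadjusted p under 0.05 (4.1%), and the median difference was 4.8e-04. Of all genes 50.2% were higher in knockout. Of the 5623 genes at least as bright as Ccnt1, 63.9% were higher, with a median of 0.028. In the 4 lists 61.5% to 76.9% of the genes were higher. The lists also hold dimmer genes, and whether they differ from either background was not tested. A fit with a replicate block called 13 genes, 0 of them in the 4 lists. In the list of P-TEFb and transcription elongation, 26 genes were measured, of which 20 were higher and 6 lower in knockout with a median of 0.037, and 0 passed (1 at an unadjusted p under 0.05). Ccnk, the cyclin of the elongation kinases Cdk12 and Cdk13, read 5.52, 5.42 and 5.91 in knockout and 5.12, 5.09 and 5.51 in wild type (log2 difference 0.38, adjusted p = 1.00). Its groups overlapped, since the highest wild-type heart reached into the knockout range. Larp7, which holds P-TEFb in its inactive 7SK complex, differed by 0.14 with groups apart (8.62, 8.67 and 8.75 in knockout, 8.59, 8.52 and 8.52 in wild type). Supt5, the pausing and elongation factor that Cdk9 phosphorylates, differed by 0.14. In this list groups stood apart for 1 of the 26 genes (3.85%), against 8.86% of all genes.

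Of 35 measured genes of the mTOR complexes and their inputs, 25 were higher and 10 lower in knockout with a median of 0.044, and 0 passed (1 at an unadjusted p under 0.05). Ddit4, a stress-induced inhibitor of mTOR complex 1, read 8.79, 8.62 and 8.75 in knockout and 8.52, 8.61 and 8.49 in wild type. Its groups stood apart by a small margin, with a log2 difference of 0.18 (adjusted p = 1.00). Lamtor2, a part of the lysosomal scaffold on which mTOR is activated, differed by 0.14 with groups apart, and Tbc1d7, a subunit of the complex that inactivates Rheb, by 0.18 with groups that overlapped. In this list the groups did not overlap for 4 of 35 genes (11.4%), against 8.86% of all genes.

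Of 26 measured genes of the Ras cycle and MAP kinases, 16 were higher and 10 lower with a median of 0.039, and 0 passed (2 at an unadjusted p under 0.05). Rasa2, a relative of Rasa1, read 7.56, 8.01 and 7.75 in knockout and 7.25, 7.61 and 7.60 in wild type, a difference of 0.29 with overlapping groups. The adaptor Shc1, which links receptors to Ras activation, differed by 0.30 and the Ras relative Rras by 0.20 (adjusted p = 1.00 for both with limma). Rras was the member of that trio with groups apart, at 9.35 to 9.55 in knockout and 9.24 to 9.31 in wild type. Groups stood apart for 4 of the 26 genes of this list (15.4%), against 8.86% of all genes.

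Of 24 measured genes of fibronectin receptors and adhesion, 18 were higher and 6 lower with a median of 0.066, and 0 passed (1 at an unadjusted p under 0.05). Tgm2, the transglutaminase that crosslinks fibronectin, had the smallest p of the 4 lists, at 10.01, 10.39 and 10.37 in knockout against 9.79, 9.94 and 9.91 in wild type. Every knockout heart was above every wild-type heart, with a log2 difference of 0.37 ± 0.11 (SE, unadjusted p = 0.00856, adjusted p = 1.00 with limma). Groups stood apart for 1 of the 24 genes of this list (4.17%), against 8.86% of all genes. Bcar1, a scaffold of integrin signalling, differed by 0.28, and Parva, which ties integrins to actin, by 0.26, both with overlapping groups. The higher counts of all 4 lists were lower without knockout replicate 2: 14 of 26, 22 of 35, 13 of 26 and 14 of 24, in the order given. In that setting sex and genotype coincide, and 51.3% of genes at least as bright as Ccnt1 were higher. Without wild-type replicate 1 the counts were 16, 20, 14 and 15, where 54.8% of those bright genes were higher. Leaving out other single arrays lowered some of the counts and raised others.

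**Figure D4:**
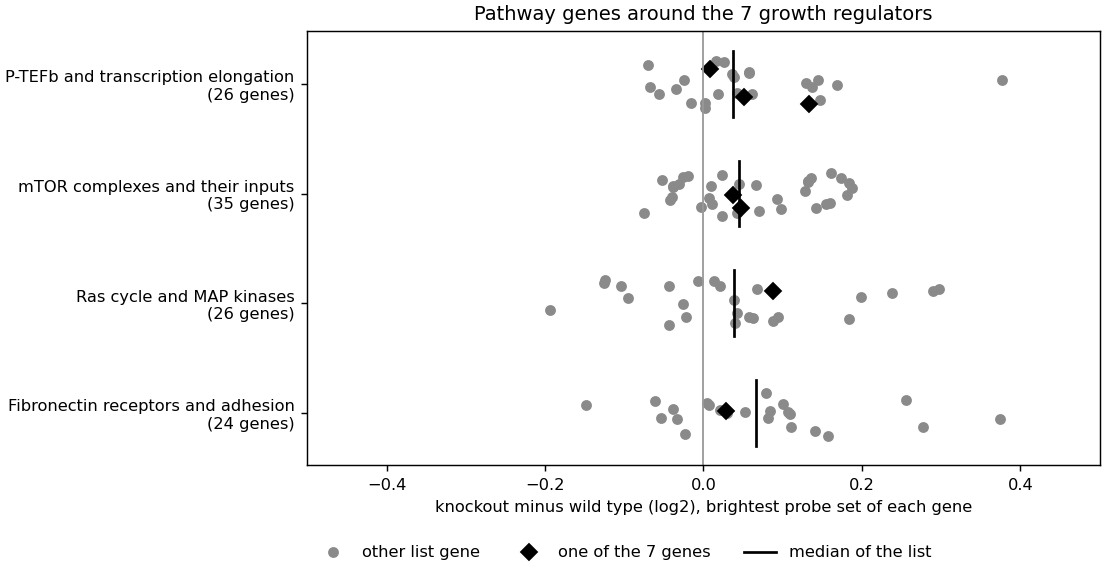
Difference between knockout and wild type (x axis, log2) of the measured genes of the 4 pathway lists (rows), with black diamonds for the 7 growth regulators, grey points for other genes, a vertical bar for the list's median, and a vertical offset inside each row only to separate points. The medians lie between 0.037 and 0.066, and the 7 genes lie between 0.0087 and 0.13.

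Cdk9 and Fn1 were the 2 genes of the 7 whose brightest probe set varied enough over the 6 arrays (SD of at least 0.15) to rank other genes by likeness. Among 2876 genes with a mean of at least 6 and an SD of at least 0.15, those with the highest Pearson correlation to Cdk9 were Aff1 (r = 0.998), Faim (0.997) and Cbx6 (0.996). Those most like Fn1 were Tnxb (0.998), Spon2 (0.986) and Mmp23 (0.984). Each correlation spans 6 arrays that share scaling and both groups.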

How the data were processed

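RNA isolated with Trizol was amplified and given a biotin label, per the labels' protocols. The deposited values are log2 RMA values that the authors made with the affy package, per the series' design text. The submitters' processing notes name GCOS 1.4. RMA removes background, quantile-normalizes arrays and merges probes into probe sets, so a change shared by most genes is lost. After 64 control probe sets were left out, 45037 remained, of which 34945 name 1 gene, 932 several and 9160 none in the platform annotation. Symbols were updated by gene identifier through RefSeq (GRCm38.p6). The brightest probe set stood for each of 18193 genes. Correlations between arrays ran from 0.991 to 0.997, with 0 identical pairs. Groups came from the titles. Knockout was compared with wild type by limma 3.58.1 in R 4.3.3 (lmFit, eBayes), without a block, with Benjamini-Hochberg adjustment over all probe sets or genes and a threshold of 0.05. The fit was tested on simulated data with independent noise and changes larger than those of the 7 genes. That run therefore does not bear on differences of their size. The naming rule took every probe set of the 7 genes, in each pathway list the 3 other genes with the smallest p, and for likeness the 3 highest correlations. Of 6 erythroid markers 3 were measured (2 higher, 1 lower), and of 10 skeletal muscle markers 5 were higher and 5 lower. At an unadjusted p under 0.05 with limma, 2 of these 10 passed (20%, against 4.1% of all genes). These were Acta1 (-0.53) and Mybpc2 (-0.38), both lower with groups apart, and 0 passed over all genes. Of 10 cardiomyocyte markers 8 were higher. The members and lists were chosen with earlier results of these data known. The number of arrays limits precision. Where nothing more is stated, arrays were taken as separate animals, as the design text gives 3 mice of each genotype.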

Additional observations from a re-analysis of the deposited data

How the results depend on the processing

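In 16 alternative settings 0 of the probe sets of the 7 genes passed an adjusted p of 0.05. All 18 were tested in 14 settings, 15 with a mean of at least 6 and 7 with 1 probe set per gene. In these fits the smallest adjusted p was 0.232 (Cdk9 with array weights). Of 274 differences recomputed, 247 kept their sign and 27 did not. The count over all probe sets was 3, and 1 to 15 without single arrays, 20 with the replicate block, 24 with array weights, 6 with trend and robust variance, and 0 with a mean of at least 6, without probe sets ending in _x_at or _s_at, with 1 probe set per gene, or with Xist as a covariate. The cause was not tested, except that 3 of these settings test fewer features. The fit without knockout replicate 2 (15 calls) sets low-Xist knockout arrays against high-Xist wild-type arrays. Probe sets of the 7 genes with groups apart numbered 6 without knockout replicate 1 (33.3%, against 35.2% of all probe sets). Without both replicates 1 they numbered 7 (38.9%, against 43.6%). They numbered 1 or 2 without any other single array, where the share of all probe sets was not computed. With all arrays, 0 of the brightest ones stood apart, against 8.86% of all genes.

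Without single arrays, the log2 differences that changed sign ranged from -0.15 to 0.022 (Rasa1 1426477), -0.12 to 0.094 (Cdk9 1457240), -0.10 to 0.14 (Fn1 1426642), -0.080 to 0.16 (Fn1 1437218), -0.016 to 0.092 (Ccnt1 1419313), -0.036 to 0.075 (Ccnt2 1453399), -0.087 to 0.14 (Ccnt2 1427089), -0.11 to 0.0053 (Ccnt2 1452297), -0.027 to 0.13 (Mtor 1417592), -0.0063 to 0.055 (Mtor 1436267) and -0.16 to 0.033 (Mtor 1446185). Fn1 1437218 was -9.3e-04 without both replicates 1, also with the block (chosen after seeing the data), and -0.0044 with array weights. Cdk9 1457240 was 0.0022 with equal medians. The fit with Xist as a covariate, given next, rests largely on knockout replicate 2 for the knockout group. With Xist as a covariate Ccnt1 1456477 was 0.015 and Mtor 1436267 -0.054, while Fn1 1426642 was 0.28, Fn1 1437218 0.24, Cdk9 1417269 0.31, Rasa1 1426476 0.20 and Ccnt1 1419313 0.17. Probe sets that kept their sign without single arrays ranged from 0.030 to 0.19 (Rasa1 1426476), -0.18 to -0.022 (Rasa1 1426478), 0.0081 to 0.11 (Rheb), 0.042 to 0.25 (Cdk9 1417269), -0.19 to -0.032 (Ccnt1 1456477), 0.11 to 0.18 (Ccnt2 1435445) and -0.22 to -0.062 (Ccnt2 1427088).

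The groups share replicate numbers in their titles. Over all probe sets, the correlation between knockout and wild-type arrays of one number, each taken as its distance from the mean of its group, was 0.46, 0.15 and 0.087 for replicates 1, 2 and 3, and the third missed 0.1. Over genes it was 0.54, 0.18 and 0.13. Replicates 2 and 3 correlated more with each other's number (0.23 and 0.26), so the numbers were not taken as pairs. With the block 13 of 18193 genes passed, against 0 without it. With the replicate block 0 of the 18 passed (smallest adjusted p = 0.825, and 0 at an unadjusted p under 0.05).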
